A study of Homo sapiens with 5 samples.

Results

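The genes described here encode the machinery that removes the poly(A) tail and the cap of messenger RNA and degrades it. The members were 48 named genes of this machinery, taken with every probe set the platform annotation lists for them. Of the 48, 15 act in decapping and 5′ to 3′ decay, 12 in deadenylation, 5 recruit these enzymes to chosen mRNAs, 9 belong to the RNA exosome and 7 to nonsense-mediated decay. Their RNA was measured on 5 Affymetrix arrays of MHH-ES-1, a human cell line established from an Ewing sarcoma, harvested 48 h after transfection of a synthetic microRNA mimic at 50 nM with a lipid reagent. There were 2 arrays for a miR-483-5p mimic, 1 for a miR-483-3p mimic and 2 for a scrambled control mimic, and all groups share the cell line, the reagent and the dose. One array of each pair is labelled a repeat, and no label says whether the paired RNA came from separate cultures. The p-values therefore reflect only the spread among these arrays, and that spread may be technical. No group holds an untransfected sample, and a mimic reaches levels that the cell's own microRNA need not reach.

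A microRNA guides Argonaute proteins to partly complementary mRNAs. TNRC6 proteins, bound to Argonaute, then recruit the PAN2-PAN3 and CCR4-NOT deadenylases, and the shortened mRNA is decapped by DCP2 and degraded by the exonuclease XRN1. The same enzymes serve mRNAs marked by AU-rich elements or by a premature stop codon, and the exosome degrades RNA from the other end. The PAN2-PAN3 and CCR4-NOT deadenylases, DCP2 and XRN1 are thus effectors through which a transfected mimic lowers its targets. The arrays show whether the mRNA levels of the members themselves differed after transfection.

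The array has 19775 genes with a probe set of their own. Of the 48 members, 45 are among these, with 111 such probe sets, and 95 of those lay above the filter on dim signals. The brightest probe set of each of these 45 members also passed the filter and stands for the gene below. For UPF3A and UPF3B no probe set is named here, and the 4 probe sets listed for SMG1 are shared with other genes. Known markers of Ewing sarcoma were bright on all arrays, with mean signals of 4738.1 for CD99 and 2741.48 for NKX2-2 in their brightest probe sets, whereas the 5 probe sets of the leukocyte gene PTPRC had means of 1.9 to 13.3. Of the other markers of foreign cell types, CD3E, EPCAM and ALB had means of at most 24, and PECAM1 reached 149.26 in 1 of its 5 probe sets. The ratio of the 3′ to the 5′ GAPDH control probe set, a sign of RNA integrity, was 1.094 and 1.102 with miR-483-5p, 1.064 with miR-483-3p, against 1.016 and 0.996 in the control. For ACTB this ratio was 1.182 and 1.073 with miR-483-5p, 1.093 with miR-483-3p, against 1.065 and 1.04 in the control. Both ratios were therefore higher on each mimic array than on both control arrays, beside every difference given below. Their part in those differences was not tested. The ACTB ratio was highest on the first miR-483-5p array. The first miR-483-5p array also had the lowest median signal, 39.2 against 41.9 to 44.9 on the other arrays.

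DCP2, the catalytic subunit of the decapping enzyme, was the member with the largest difference and the lowest p with either mimic. Its brightest probe set, 212919_at, had signals of 1137.9 and 934.7 with miR-483-5p, 793.2 with miR-483-3p, against 510.2 and 561.1 in the scrambled control. Both miR-483-5p arrays were the brightest, the miR-483-3p array came next and the controls were the dimmest, with no overlap between groups. In an extract of many cells, less RNA per cell and fewer cells of a type cannot be told apart. The mean was 1036.3 ± 143.68 with miR-483-5p, against a control mean of 535.65 ± 35.99 (SD, n = 2 each). On the log2(signal + 32) scale, where dim probe sets show less than their true change, miR-483-5p exceeded the control by 0.91 (SE 0.16, 95% interval 0.53 to 1.28), a ratio of 1.88. In limma's test with Benjamini-Hochberg adjustment over 14591 genes the unadjusted p was 0.000733 and the adjusted p was 0.297, above the threshold of 0.05. No gene of the 14591 passed that threshold (0.0%), while DCP2 had the 35th lowest p and the 23rd highest difference of all genes tested.

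The other DCP2 probe sets lay in the same direction. Probe set 235258_at had 167.2 and 348.3 with miR-483-5p, 171.6 with miR-483-3p, against 134.3 and 147 in the control. Probe set 244777_at had 82.3 and 85 with miR-483-5p, 82.4 with miR-483-3p, against 53.8 and 61.3 in the control. The dimmest, 238779_at, had 27.3 and 67.1 with miR-483-5p, 43.1 with miR-483-3p, against 24.5 and 22.3 in the control. In all 4 probe sets every mimic array was thus above both control arrays, although in 235258_at and 238779_at the second miR-483-5p array was over 2-fold above the first. Log2 differences ran from 0.37 to 0.91 for miR-483-5p against the control and for miR-483-3p from 0.24 to 0.54. The probe sets share their RNA and are no replicates of each other.

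**Figure D1:**
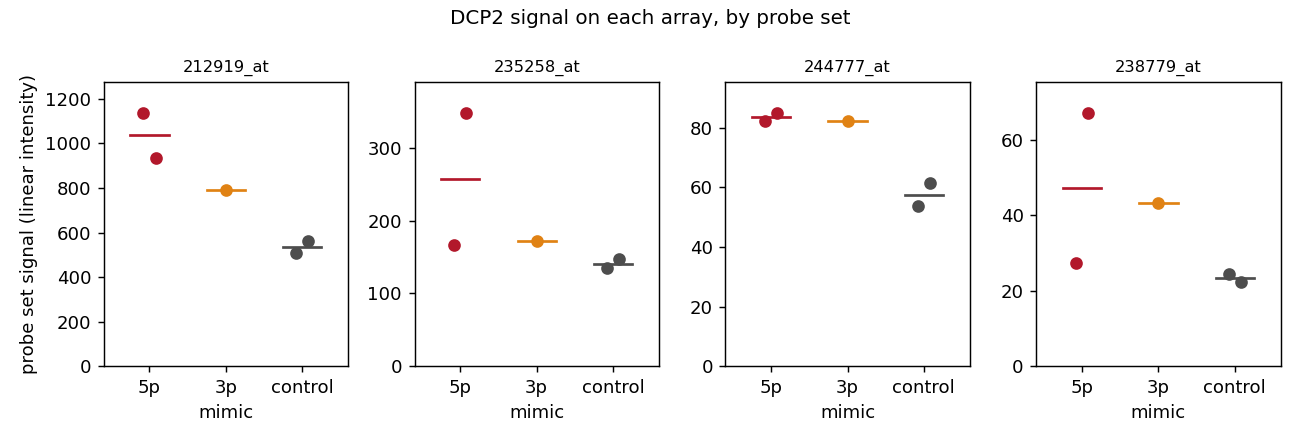
Signal of the 4 DCP2 probe sets (linear intensity, axes from 0) on each array, with miR-483-5p left, miR-483-3p in the middle and the scrambled control right. Points are arrays and lines are group means; in 212919_at the mimic arrays have 1137.9, 934.7 and 793.2 and the controls 510.2 and 561.1, and in each probe set every mimic array lies above both controls.

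Since DCP2 had the largest difference among the members, its promoter is shown with that of PAN2, the member with the next lowest p for miR-483-5p against the control. Each window runs 5′ to 3′ on the gene's strand, from 250 bases before the RefSeq start to 50 after it in GRCh38.p14, and capitals mark the CCAAT box, the letters CCAAT or their reverse complement ATTGG. The DCP2 window is chr5:112976548-112976847 on the plus strand, and the PAN2 window is chr12:56333951-56334250 on the minus strand.
DCP2: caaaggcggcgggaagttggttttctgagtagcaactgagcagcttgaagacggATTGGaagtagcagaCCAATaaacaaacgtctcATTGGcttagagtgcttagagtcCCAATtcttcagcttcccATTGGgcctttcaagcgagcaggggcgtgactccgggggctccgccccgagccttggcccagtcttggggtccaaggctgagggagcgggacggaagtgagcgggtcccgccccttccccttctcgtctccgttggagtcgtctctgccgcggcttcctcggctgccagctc
PAN2: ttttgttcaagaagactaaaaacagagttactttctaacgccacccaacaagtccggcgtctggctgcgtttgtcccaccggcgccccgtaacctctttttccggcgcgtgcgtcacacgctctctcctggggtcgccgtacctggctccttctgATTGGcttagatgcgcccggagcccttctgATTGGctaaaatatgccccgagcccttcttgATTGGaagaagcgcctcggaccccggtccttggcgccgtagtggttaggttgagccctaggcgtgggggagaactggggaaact
The DCP2 window holds 5 CCAAT boxes, the first at -196 and the last at -122 relative to the start, and the PAN2 window holds 3. Promoter sequences were matched for 41 members (not LSM1, LSM6, CNOT1, CNOT7, ZFP36L2, EXOSC1 and EXOSC4), and 18 of them (43.9%) hold the motif at least once, against 36.6% of 11687 promoters of genes tested. At least 3 boxes occur in 5 of the 41 windows (DCP2, PAN2, CNOT3, CNOT10 and EXOSC2), and in 4.42% of the promoters of genes tested. DCP2 is the member with 5, a number that 0.513% of those promoters reach. The other members with at least 3 boxes had miR-483-5p differences of 0.05 for CNOT3, 0.15 for CNOT10 and 0.12 for EXOSC2. Their 95% intervals include 0, as does that of PAN2 (-0.02 to 0.77). The motifs were chosen after values were seen, and a link between box number and these differences was not tested. The 4 motifs searched on both strands were CCAAT, the ETS motif CCGGAAG (6 of 41 members, against 17.1% of promoters of genes tested), TATAAA (2 of 41, against 6.91%) and the CRE TGACGTCA (1 of 41, against 2.99%). The DCP2 and PAN2 windows hold none of the last 3, which says only that these letters are not in these windows.

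The remaining decapping genes showed small differences with miR-483-5p. Of the 15, DCP2 alone had an unadjusted p under 0.05, and over all 45 measured members it was 1 (2.22%), where 10.7% of all genes tested reached that p. LSM6, a subunit of the ring that binds the 3′ end of deadenylated mRNA, had 838.2 and 801.4 with miR-483-5p, 761.4 with miR-483-3p, against 655 and 662.9 in the control. EDC4, a scaffold of the decapping complex, had 312.1 and 272.5 with miR-483-5p, 261.2 with miR-483-3p, against 220.4 and 239.4 in the control. For both genes the miR-483-5p arrays did not overlap the controls, with log2 differences of 0.30 (SE 0.14) and 0.31 (SE 0.15) and limma adjusted p-values of 0.492 and 0.516.

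XRN1, the cytoplasmic exonuclease that degrades decapped mRNA, and XRN2, its nuclear relative, differed from the control in opposite directions. XRN1 had 239.5 and 213.1 with miR-483-5p, 206.6 with miR-483-3p, against 201.8 and 169.6 in the control. XRN2 had 730.2 and 960.4 with miR-483-5p, 986.8 with miR-483-3p, against 988.7 and 1039.6 in the control, and its first miR-483-5p array was the lowest. The log2 differences were 0.25 (95% interval -0.11 to 0.61) for XRN1 and -0.27 (-0.67 to 0.14) for XRN2, and both intervals include 0. The second probe set past the filter gave 0.12 for XRN1 and -0.14 for XRN2.

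PATL1, a protein that bridges deadenylation and decapping, was lower with miR-483-5p in each of its 5 probe sets, by amounts that disagreed. Its brightest probe set had 389.9 and 435.2 with miR-483-5p, 409 with miR-483-3p, against 446.3 and 466.6 in the control, a log2 difference of -0.14 (limma adjusted p = 0.768). Probe set 235234_at had 135.1 and 200 with miR-483-5p, 234.2 with miR-483-3p, against 267.8 and 315.1 in the control. That is a log2 difference of -0.71 with an unadjusted p of 0.0112 when every probe set was tested by itself, a fit in which 8.33% of 32768 probe sets and 3 of the members' 95 had an unadjusted p under 0.05 and none of the 95 an adjusted p under 0.05. EDC3, an enhancer of decapping, was lower in both of its probe sets, with log2 differences of -0.25 and -0.23. The decapping cofactors DCP1A and DCP1B differed by 0.14 and 0.04, and the other LSM ring genes, LSM1 to LSM5 and LSM7, ranged from -0.12 for LSM2 to 0.12 for LSM4.

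**Figure D2:**
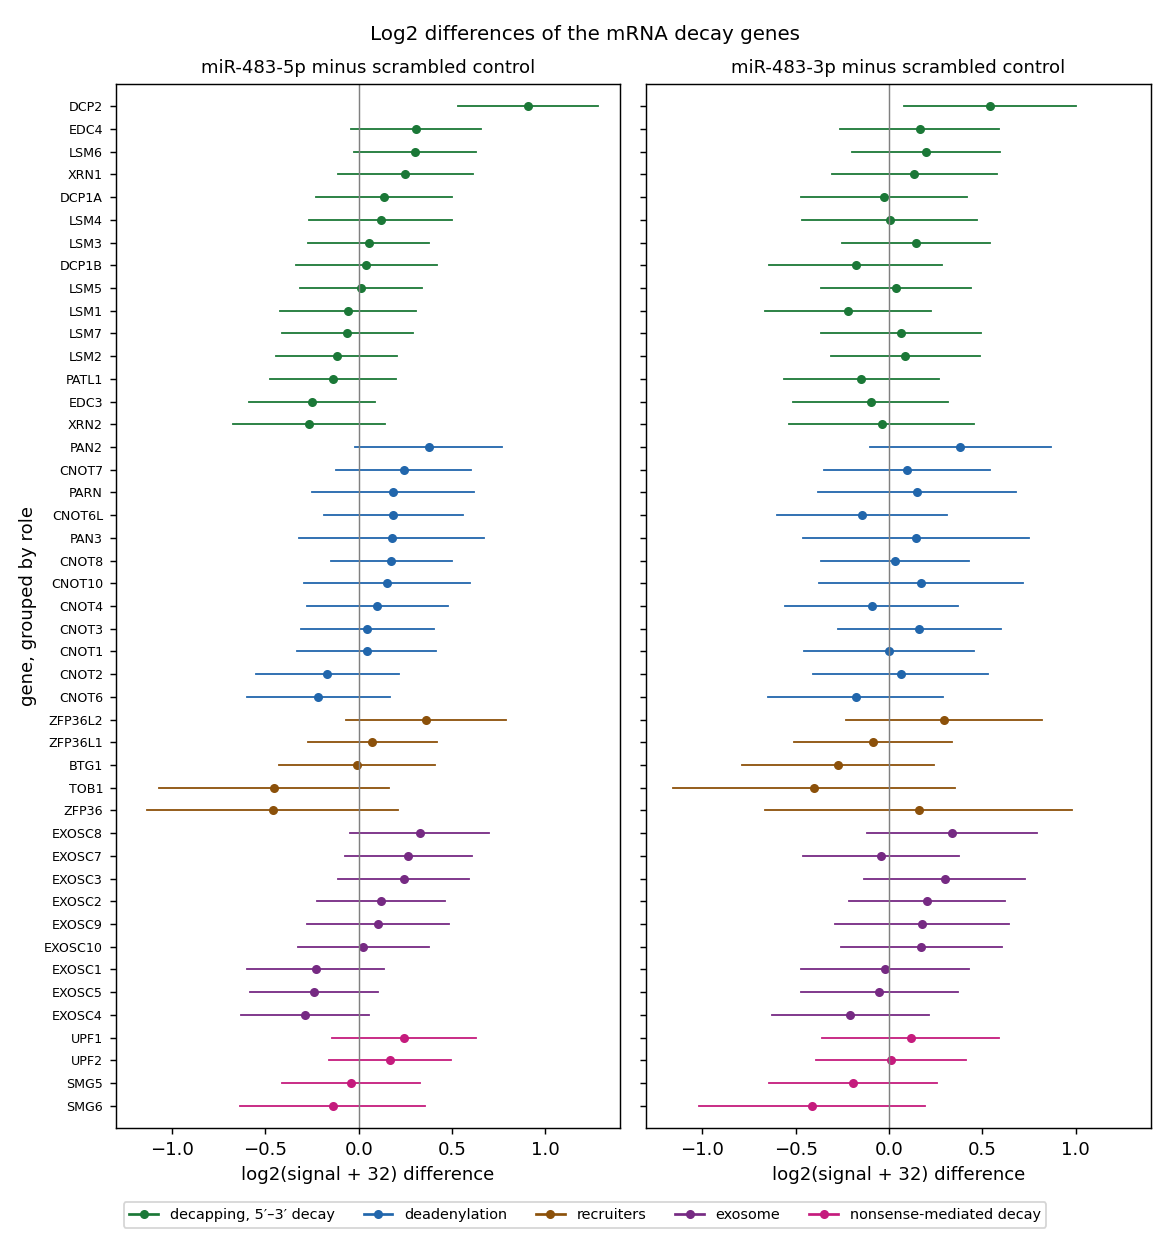
Log2(signal + 32) differences of the 45 measured members, miR-483-5p minus scrambled control on the left and miR-483-3p minus scrambled control on the right. Points are differences and lines their 95% intervals from the limma fit, coloured by role; the interval excludes 0 for DCP2, at 0.91 and 0.54, and includes 0 for the other 44 members in both panels.

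Among the deadenylation genes, 10 of 12 (83.3%) were above the control mean after miR-483-5p in their brightest probe sets, where 48.5% of all genes tested were. None reached an unadjusted p of 0.05. CNOT1 to CNOT4, CNOT6L, CNOT7 and CNOT8 had probe sets past the filter on both sides of the control. PAN2, the catalytic subunit of the deadenylase that trims long poly(A) tails, had 136.1 and 99.1 with miR-483-5p, 117.3 with miR-483-3p, against 82.2 and 82.9 in the control. All mimic arrays lay above both controls, and the log2 difference for miR-483-5p was 0.37 (SE 0.17, limma adjusted p = 0.486). Its partner PAN3 had 238.4 and 157.1 with miR-483-5p, 189.1 with miR-483-3p, against 189.1 and 149 in the control, so that the groups overlapped.

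CCR4-NOT carries its deadenylase activity in 2 pairs of paralogs, CNOT6 with CNOT6L and CNOT7 with CNOT8. CNOT6 had 501.1 and 633 with miR-483-5p, 579.7 with miR-483-3p, against 641.7 and 677.8 in the control, a log2 difference of -0.22 (95% interval -0.60 to 0.17) for miR-483-5p. CNOT6L had 338.8 and 396.9 with miR-483-5p, 285.7 with miR-483-3p, against 294.8 and 344.4 in the control, a difference of 0.19 (-0.19 to 0.56), with 0.35 and -0.03 in its other probe sets past the filter. CNOT6 was below the controls and CNOT6L overlapped them, and neither interval excludes 0. CNOT7 had 2958.5 and 3159.7 with miR-483-5p, 2766.2 with miR-483-3p, against 2368.6 and 2814.9 in the control, while CNOT8 had 783.3 and 759.3 with miR-483-5p, 696.1 with miR-483-3p, against 672.2 and 686.3 in the control. Both were above the controls on the miR-483-5p arrays, with log2 differences of 0.24 (SE 0.15) and 0.18 (SE 0.14), while their other probe sets past the filter ranged from -0.10 to 0.23 for CNOT7 and from -0.07 to 0.10 for CNOT8. The scaffold CNOT1 differed by 0.04, the structural subunits CNOT2 and CNOT3 by -0.17 and 0.05, the ubiquitin ligase CNOT4 by 0.10 and CNOT10 by 0.15. PARN, a poly(A)-specific ribonuclease, had 389.9 and 275.5 with miR-483-5p, 319.2 with miR-483-3p, against 286.3 and 283 in the control. Its difference of 0.19 became -0.04 once the first miR-483-5p array was left out.

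The deadenylation genes were higher on the first miR-483-5p array than on the second, by a median of 0.18 on the log2 scale. That median was 0.19 for exosome, 0.28 for nonsense-mediated decay, 0.085 for decapping and 0.058 for recruiter genes, against 0.013 over all genes tested. The median difference of the 12 deadenylation genes from the control was 0.16. It became -0.01 without the first miR-483-5p array, against a median of -0.0085 over all genes tested. Without the first control array it was 0.06.

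The 5 genes that recruit decay enzymes lay on both sides of the control. ZFP36, ZFP36L1 and ZFP36L2 encode zinc finger proteins that bind AU-rich elements and bring in CCR4-NOT. ZFP36L2 had 465.8 and 345.6 with miR-483-5p, 382.3 with miR-483-3p, against 329.8 and 282.7 in the control, and its miR-483-5p arrays did not overlap the controls. ZFP36L1 had 1032.4 and 990.5 with miR-483-5p, 901.9 with miR-483-3p, against 1027.1 and 895.1 in the control, while ZFP36 had 19.1 and 18 with miR-483-5p, 45.6 with miR-483-3p, against 63.9 and 18.4 in the control. In both genes the control arrays spanned or reached the miR-483-5p values, and ZFP36, with a mean of 33 over all arrays, lay near the filter at 27.2. The log2 differences for miR-483-5p were 0.36 (SE 0.18) for ZFP36L2, 0.07 (SE 0.15) for ZFP36L1 and -0.46 (SE 0.28) for ZFP36, with limma adjusted p-values of 0.535, 0.891 and 0.612. Without the first control array the ZFP36 difference was 0.004. TOB1, an antiproliferative adaptor that links CCR4-NOT to poly(A)-binding protein, had 319.2 and 590.8 with miR-483-5p, 452.3 with miR-483-3p, against 594.3 and 621.1 in the control. Its first miR-483-5p array stood apart from the second, the difference was -0.45 (SE 0.26), and its other probe set gave 0.02. BTG1, of the same protein family, differed by -0.01, a sign that turned with median centring of the arrays.

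Exosome genes lay on both sides of the control with miR-483-5p, 6 higher and 3 lower, with log2 differences from -0.29 to 0.33. EXOSC8 had 544.5 and 441.4 with miR-483-5p, 493.8 with miR-483-3p, against 393.7 and 375.3 in the control. EXOSC7 had 850 and 753.4 with miR-483-5p, 639.3 with miR-483-3p, against 674.2 and 646.1 in the control. EXOSC4 had 877.9 and 765.4 with miR-483-5p, 869 with miR-483-3p, against 1005.5 and 1009.8 in the control. These 3 genes encode subunits of the ring of the exosome, and EXOSC8 and EXOSC7 were above and EXOSC4 was below the controls on both miR-483-5p arrays. Their log2 differences were 0.33 (SE 0.16), 0.27 (SE 0.14) and -0.29 (SE 0.15), with limma adjusted p-values of 0.516, 0.559 and 0.537. The 3 EXOSC4 probe sets gave -0.29, -0.28 and -0.24, whereas the second EXOSC7 probe set gave -0.05.

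EXOSC5 and EXOSC9, also of the ring, differed by -0.24 and 0.10. The RNA-binding cap subunits EXOSC1, EXOSC2 and EXOSC3 differed by -0.23, 0.12 and 0.24, and all 6 probe sets of EXOSC3 and all 3 of EXOSC2 past the filter were higher. EXOSC10, the nuclear exonuclease of the complex, had 638.4 and 551.3 with miR-483-5p, 660.6 with miR-483-3p, against 559.3 and 605.7 in the control. Its groups overlapped, and the difference was 0.03 (95% interval -0.33 to 0.38).

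Nonsense-mediated decay was represented by 4 of its 7 members. UPF1, the RNA helicase at its centre, had 667.9 and 535.7 with miR-483-5p, 544.9 with miR-483-3p, against 474.1 and 527.7 in the control. UPF2, which joins UPF1 to the exon junction complex, had 399.3 and 377.4 with miR-483-5p, 344.6 with miR-483-3p, against 347.3 and 336.6 in the control. Both were above the controls on the miR-483-5p arrays, with log2 differences of 0.24 (SE 0.16) and 0.17 (SE 0.14) and limma adjusted p-values of 0.636 and 0.701. SMG6, the endonuclease that cuts the target mRNA, had 86.4 and 53.4 with miR-483-5p, 51.2 with miR-483-3p, against 65.9 and 93.3 in the control, so that the groups overlapped, and SMG5, an adaptor for phosphorylated UPF1, differed by -0.04. Probe set 224842_at, the brightest of those shared by SMG1, the kinase of UPF1, and listed for BOLA2 too, had 473.8 and 423.1 with miR-483-5p, 370.7 with miR-483-3p, against 472.4 and 417 in the control. Its log2 difference for miR-483-5p was 0.01. The dimmer shared probe sets 244766_at, 237464_at and 210057_at gave 0.31, 0.29 and -0.03, and the miR-483-5p arrays overlapped the controls in the last of them only.

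Side by side, the roles differed little with miR-483-5p. The median log2 difference from the control was 0.04 for the 15 decapping genes, 0.16 for the 12 deadenylation genes, -0.01 for the 5 recruiters, 0.10 for the 9 exosome genes and 0.06 for the 4 genes of nonsense-mediated decay, against -0.0085 over all genes tested. With only the second miR-483-5p array kept, the deadenylation, exosome and nonsense-mediated decay medians were -0.01, -0.051 and -0.041. Over the 45 genes the median size of the difference was 0.18, against 0.19 between the 2 miR-483-5p arrays and 0.12 between the 2 controls. Over all genes tested the same values were 0.151, 0.175 and 0.156. In either set the first is a difference of 2-array means and the others are differences of 1 array from another, so their sizes are not directly comparable. Groups did not overlap in 23 members, 14 above and 9 below the control, which is 51.1%, where 42.5% of all genes tested did not overlap, 20.3% above and 22.2% below. Of the 45, 29 (64.4%) had a higher mean than the control, where 48.5% of all genes tested had. The share without overlap was 60% of the decapping, 33.3% of the deadenylation, 40% of the recruiter, 66.7% of the exosome and 50% of the nonsense-mediated decay genes.

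Members with several probe sets past the filter numbered 28, and in 14 of them all probe sets had the same sign for miR-483-5p against the control. DCP2, ZFP36L2, EXOSC2, EXOSC3, XRN1, DCP1A, ZFP36L1 and UPF1 were higher throughout, and PATL1, EDC3, XRN2, CNOT6, EXOSC4 and BTG1 were lower throughout. CNOT1 to CNOT4, CNOT6L, CNOT7, CNOT8, LSM4, LSM5, TOB1, EXOSC7, EXOSC10, SMG5 and SMG6 had probe sets of both signs. For miR-483-3p against the control, all probe sets had the same sign in 17 of the 28 members.

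**Figure D3:**
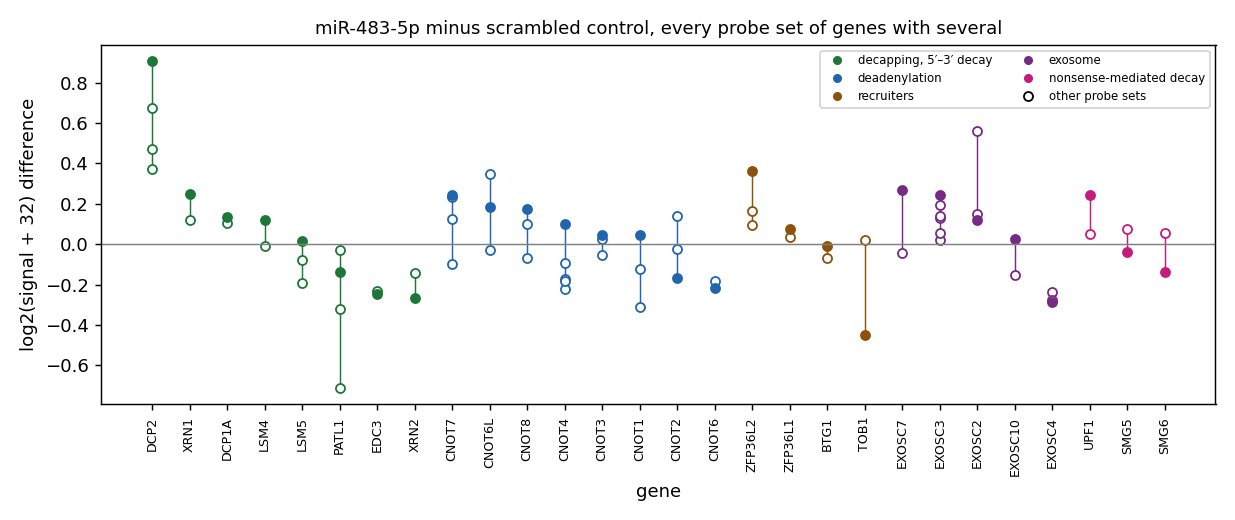
Log2(signal + 32) difference, miR-483-5p minus scrambled control, for every probe set past the filter of the 28 members with several, coloured by role. Filled points are the probe set that stands for the gene and open points the others; the 4 of DCP2 lie between 0.37 and 0.91, and those of 14 genes lie on both sides of 0.

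For miR-483-3p there was 1 array, whose spread was taken from the other groups, and its comparison shares the control arrays with that of miR-483-5p. DCP2 was higher by 0.54 (SE 0.19, 95% interval 0.08 to 1.001), with an unadjusted p of 0.0271 and a limma adjusted p of 0.706. DCP2 was again the 1 member of 45 (2.22%) with an unadjusted p under 0.05, which 6.56% of all genes tested had, and none passed the adjusted threshold, as for all genes (0.0%). Without the first control array the difference was 0.48 and without the second it was 0.61. PAN2 was higher by 0.38, EXOSC8 by 0.34, EXOSC3 by 0.30 and ZFP36L2 by 0.30, with limma adjusted p-values of 0.853, 0.869, 0.883 and 0.905. The lowest were SMG6 at -0.41, TOB1 at -0.40 and BTG1 at -0.27, with adjusted p-values of 0.887, 0.905 and 0.905. LSM6 and LSM1 differed by 0.20 and -0.22, EXOSC4 by -0.21, SMG5 by -0.19, CNOT6 by -0.18 and CNOT3 by 0.16. With every probe set tested by itself in limma, 2 of the members' 95 had an unadjusted p under 0.05, against 5.6% of all probe sets. They were 212919_at of DCP2 and the dim 222181_at of CNOT2. The latter had 16.7 with miR-483-3p, against 37.1 and 48 in the control, a log2 difference of -0.61. The brightest CNOT2 probe set gave 0.06. The 6 EXOSC3 probe sets ran from -0.36 to 0.30, and the second SMG6 probe set gave -0.055.

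In their brightest probe sets other enzymes of the pathway were close to the control with miR-483-3p. XRN1 differed by 0.14 (95% interval -0.31 to 0.58), XRN2 by -0.04 (-0.53 to 0.46), PARN by 0.15 (-0.38 to 0.68), EXOSC10 by 0.17 (-0.26 to 0.61) and UPF1 by 0.12 (-0.36 to 0.59). The deadenylase subunits CNOT6L, CNOT7 and CNOT8 differed by -0.14, 0.10 and 0.03, and ZFP36 and ZFP36L1 by 0.16 and -0.09. The 95% intervals given reach well to either side of 0, so with 1 array a difference of moderate size was not detectable. Over all probe sets past the filter, CNOT6L ran from -0.14 to 0.37, CNOT7 from -0.14 to 0.22 and CNOT8 from -0.10 to 0.03. XRN1 ran from 0.14 to 0.29, EXOSC10 from 0.17 to 0.32, UPF1 from -0.045 to 0.12 and ZFP36L1 from -0.20 to -0.09. Of the 45 members, 26 were higher (57.8%, where 49.8% of all genes tested were) and 19 lower than the control mean, with medians of 0.04 for decapping, 0.08 for deadenylation, -0.09 for recruiters, 0.17 for exosome and -0.09 for nonsense-mediated decay genes, against -0.0013 over all genes tested. The miR-483-3p value lay above both controls for 18 members and below both for 13 (68.9% together), where 68.8% of all genes tested lay outside, 33.4% above and 35.4% below.

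Set directly against each other, the 2 arms gave no member an unadjusted p under 0.05 in its brightest probe set, where 6.65% of all genes tested had one. None passed the adjusted threshold (0.0% of all genes). DCP2 was higher with miR-483-5p than with miR-483-3p by 0.37 (SE 0.19, 95% interval -0.09 to 0.83, limma adjusted p = 0.793). Its other probe sets gave 0.435 for 235258_at, 0.03 for 238779_at and 0.02 for 244777_at, and in these 3 the miR-483-3p value lay between the miR-483-5p arrays. In the brightest probe sets ZFP36 differed by -0.62, CNOT6L by 0.33, EXOSC7 by 0.31, SMG6 by 0.27 and BTG1 by 0.26, with limma adjusted p-values of 0.799, 0.81, 0.8, 0.896 and 0.877. Other probe sets past the filter gave -0.02 and 0.055 for CNOT6L, 0.06 for EXOSC7, 0.11 for SMG6 and 0.32 for BTG1. LSM2, CNOT2, XRN2, EXOSC1 and EXOSC5 differed by -0.21, -0.23, -0.23, -0.21 and -0.19 on the log2 scale (miR-483-5p minus miR-483-3p), DCP1B and CNOT4 were higher by 0.22 and 0.19, and UPF2 and SMG5 were higher by 0.16 and 0.15. The dim CNOT2 probe set 222181_at went the other way, by 0.59, with 39.8 and 42.6 with miR-483-5p and 16.7 with miR-483-3p. With every probe set tested by itself in limma, it was the 1 of the members' 95 with an unadjusted p under 0.05, against 5.71% of all probe sets. The other CNOT4 probe sets past the filter gave -0.193, -0.044, -0.233 and 0.146. CNOT6, CNOT7, CNOT8, PAN2, PARN, XRN1, ZFP36L1, ZFP36L2, EXOSC10 and UPF1 differed by -0.15 to 0.16. The miR-483-3p value lay outside the miR-483-5p pair for 66.7% of the members, with miR-483-5p above for 18 and below for 12, where 67.9% of all genes tested lay outside, 34.4% above and 33.5% below. Higher with miR-483-5p were 24 of the 45 (53.3%), where 50.2% of all genes tested were. In their brightest probe sets 8 of the 9 exosome genes were lower with miR-483-5p than with miR-483-3p, by as little as -0.009 for EXOSC8, and over the 20 exosome probe sets past the filter 12 were lower and 8 higher. The brightest probe sets of all 4 genes of nonsense-mediated decay were higher.

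Another 57 genes of mRNA decay were examined beside the members, 49 of them with a probe set past the filter. None passed the adjusted threshold in any comparison. At an unadjusted p under 0.05 there was 1 for miR-483-5p against the control (2.04%, against 10.7% of all genes), none for miR-483-3p against the control, where 6.56% of all genes had one, and 2 between the arms (4.08%, against 6.65%). RC3H2, an RNA-binding roquin protein that recruits deadenylases, had 535.7 and 457.9 with miR-483-5p, 416.6 with miR-483-3p, against 380.5 and 376.9 in the control, a difference of 0.36 for miR-483-5p (limma adjusted p = 0.451). Its other 6 probe sets gave 0.315, 0.004, -0.013, -0.022, -0.033 and -0.175. In their brightest probe sets all 11 measured recruiters of this second list were above the control mean after miR-483-5p, by a median of 0.20, where 48.5% of all genes tested were above. Over their 51 probe sets past the filter 31 were higher and 20 lower, and the brightest probe sets of TNRC6A, TNRC6B, TNRC6C and RC3H1 turned lower once 1 array was left out. NUDT16, a hydrolase with decapping activity, was higher with miR-483-5p than with miR-483-3p by 0.57, and DHX34, a helicase of nonsense-mediated decay, differed by -0.61, with adjusted p-values of 0.68 and 0.693. NUDT16 was dim, at 30.1 and 47 with miR-483-5p and 15.2 with miR-483-3p. Its other probe sets, all under the filter, went the other way, by -0.28, -0.16 and -0.29. With every probe set tested by itself in limma, 6 of the 145 of these genes had an unadjusted p under 0.05 for miR-483-5p against the control (4.14%, against 8.33% of all probe sets). For miR-483-3p against the control 9 did (6.21%, against 5.6%), and between the arms 6 did (4.14%, against 5.71%). None had an adjusted p under 0.05 in any comparison. For miR-483-5p against the control the lowest p was that of 232075_at, a probe set of SKIC8, a subunit of the SKI complex that feeds RNA to the exosome. It had 817 and 734.5 with miR-483-5p, 975.1 with miR-483-3p, against 352.6 and 269.1 in the control, log2 differences of 1.245 and 1.565 (limma adjusted p = 0.495 and 0.712), while the brightest SKIC8 probe set gave -0.27 and 0.04. Next came 213359_at of HNRNPD, an AU-rich element binding protein, with 303.8 and 359 with miR-483-5p, 200.3 with miR-483-3p, against 143.3 and 159.5 in the control. Its miR-483-5p difference was 0.98 (limma adjusted p = 0.509), against 0.31 in the brightest HNRNPD probe set. Over the 49 genes the median difference from the control was 0.11 with miR-483-5p and 0.03 with miR-483-3p.

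**Figure D4:**
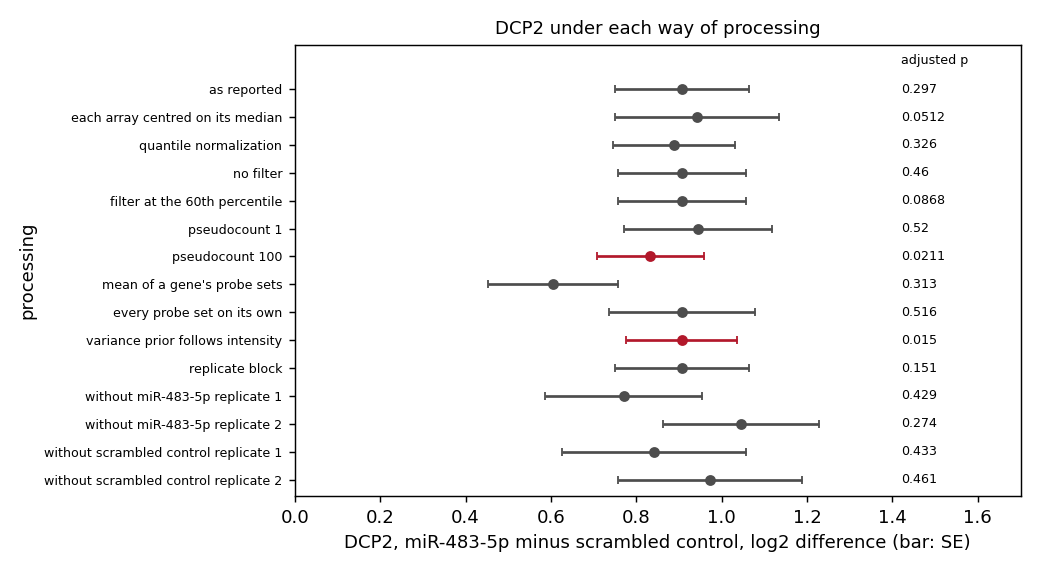
Log2 difference of DCP2, miR-483-5p minus scrambled control, under the reported processing and 14 alternatives, with the limma adjusted p of each at the right. Points are differences, bars their SE, and red marks an adjusted p under 0.05; the differences run from 0.61 with the mean of the gene's probe sets to 1.05 without the second miR-483-5p array, and 2 of the 14 alternatives pass.

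For miR-483-5p against the control, DCP2 depended on the processing for its call but not for its direction. It lay between 0.61 and 1.05 under all 14 alternatives, and its adjusted p ranged from 0.015 to 0.52. The adjusted p was 0.0211 with a pseudocount of 100 and 0.015 with a variance prior that follows intensity. With each array centred on its median it was 0.0512. Leaving out any of the 4 paired arrays gave a difference of 0.77 to 1.05 and an adjusted p of 0.274 to 0.461.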

How the data were processed

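The authors' deposited values are linear probe set intensity for 54675 probe sets on 5 HG-U133 Plus 2 arrays, 54613 without the 62 control probe sets. GCOS and Partek are named without roles per the submitters' processing notes. The sources used here do not give how probes were summarised into a signal. With 2% of values dropped from either tail, the mean deposited intensity is 150 on every array, so the arrays share a scale. No detection calls were used here, so the distance of dim probe sets from background is unknown.

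Probe sets were named from the platform annotation, with symbols updated by gene identifier to RefSeq for GRCh38.p14. The probe set of highest mean stood for a gene, and genes under the 40th percentile of mean log2 signal (a signal of 27.2) were left out, leaving 14591. Values were log2(signal + 32), modelled in limma 3.58.1 (R 4.3.3) by group means of the 5 arrays together (2 residual and 4.96 prior degrees of freedom), two-sided, with Benjamini-Hochberg adjustment over all genes and a threshold of 0.05. The fit was run on data simulated with normal errors, which checks the calculation and not the differences reported here. The small number of arrays limits precision.

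The members and lists were chosen with earlier results of these data known. Named were, for each comparison and role, the 3 members of lowest p (2 for recruiters), a fixed set of enzymes and the ZFP36 family, and further genes of the pathway at an unadjusted p under 0.05. The remaining values of members, the PATL1, CNOT2, SKIC8 and HNRNPD probe sets and the promoter motifs were chosen after values were seen. Promoters are from RefSeq. Matplotlib 3.10.9 drew the figures. The mimics' own sequences were not used here. Alternatives are given at the end.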

Additional observations from a re-analysis of the deposited data

How the results depend on the processing

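Of the 45 measured members, DCP2 was the 1 that gained a call under any of the 14 alternatives, in the miR-483-5p comparison, with a pseudocount of 100 and with a variance prior that follows intensity. The count of all genes called, 0 as reported, became 37 for miR-483-5p, 2 for miR-483-3p and 7 between the arms with median centring, 1 for miR-483-5p with the filter at the 60th percentile, 33 for miR-483-5p and 1 for miR-483-3p with a pseudocount of 100, and 39 and 1 with the intensity prior. With the array number as a replicate block, DCP2 differed by 0.91 for miR-483-5p (limma adjusted p = 0.151). The labels do not pair the arrays, and the block turned the sign of 0, 7 and 3 of the 45 members (miR-483-5p, miR-483-3p and between the arms), among the members named by rule XRN2 (0.075) and ZFP36 (-0.081) for miR-483-3p and PAN2 (0.079) between the arms, and gave a deadenylation median of -0.002 for miR-483-3p. Median centring gave a decapping median of 0.077 for either mimic, and quantile normalization 0.0 for miR-483-3p. Centring turned the sign of 1 and 3 members for miR-483-5p and miR-483-3p, and quantile normalization of 1 and 2. With probe sets averaged per gene, the medians were 0.014 (decapping) and 0.084 (deadenylation) for miR-483-5p and 0.014 (decapping), -0.017 (deadenylation) and 0.003 (recruiters) for miR-483-3p. The recruiter median for miR-483-3p was -0.18 with the 60th percentile filter, which leaves fewer genes. Averaging probe sets turned the sign of 6, 6 and 11 of the 45 in the same 3 comparisons, among those named EXOSC10 (-0.063) for miR-483-5p, CNOT7 (-0.062), CNOT8 (-0.036) and ZFP36L1 (0.003) for miR-483-3p, and CNOT2 (0.24), CNOT4 (-0.027), CNOT6 (0.016), ZFP36L2 (-0.034) and EXOSC1 (0.11) between the arms. Leaving out 1 array at a time, the miR-483-5p medians ranged over 0.008 to 0.049 (decapping), -0.01 to 0.19 (deadenylation), -0.10 to 0.10 (recruiters), -0.051 to 0.13 (exosome) and -0.041 to 0.15 (nonsense-mediated decay), and the miR-483-3p medians over 0.004 to 0.05 (deadenylation) and -0.31 to 0.011 (recruiters). In these leave-one-out fits 18, 14 and 15 of the 45 turned sign at least once, among those named PARN (-0.042 to 0.41), ZFP36 (-0.92 to 0.004), ZFP36L1 (-0.022 to 0.17), EXOSC10 (-0.074 to 0.13) and SMG6 (-0.38 to 0.10) for miR-483-5p, CNOT7 (-0.025 to 0.22), ZFP36 (-0.31 to 0.62) and ZFP36L1 (-0.18 to 0.011) for miR-483-3p, and CNOT6 (-0.20 to 0.12), PAN2 (-0.19 to 0.17), PARN (-0.19 to 0.27), ZFP36L2 (-0.13 to 0.27) and UPF1 (-0.023 to 0.28) between the arms. Except for the alternatives' own construction, the cause was not tested. Dim probe sets such as that of ZFP36 limit what can be read, since their distance from background is unknown.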
